A study of Homo sapiens with 6 samples.

Results

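Expressed ZNF genes, most of which encode zinc finger proteins, were examined, 152 in all. They were chosen by their symbol (ZNF, a number and at most 1 further letter) and by their level, with at least 10 CPM (the count per 1000000 counts of the library) averaged over both Nut 0h libraries. The symbol matched 565 of the 57905 genes in the count table, 484 of these had at least 1 count, and 378 passed the low-count filter for testing, including all 152 chosen genes. The Nut 0h level therefore chose the genes and is given as a description.

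The RNA came from HCT116, a colorectal carcinoma cell line of human origin that carries wild-type p53. Cells received either the vehicle DMSO (Nut 0h) or 10 µM Nutlin-3a for 1 h (Nut 1h) or 10 h (Nut 10h), giving 6 libraries, 2 biological replicates for each condition. Nutlin-3a blocks the binding of p53 to HDM2 (MDM2) and so activates p53 without DNA damage. The cells are a single line under a single dose, and the labels give no p53-null counterpart.

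Most ZNF proteins bind DNA through tandem C2H2 zinc fingers, in which a pair of cysteines and a pair of histidines hold a zinc ion. Many also carry a KRAB domain, which recruits TRIM28 and, through it, histone methylation and heterochromatin proteins that silence repeats and genes. Other ZNF proteins activate promoters, bind RNA or act in translation, so that the shared name covers several roles. KRAB genes lie in tandem clusters, many of them on chromosome 19.

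The library totals lay between 26068076 and 35473485 counts. All 6 epithelial markers checked (such as KRT8 and EPCAM) were found in every library. They summed to 3528 and 3836 TMM-scaled CPM in the Nut 1h libraries and to 5187 to 7892 in the other 4. Single markers went both ways at Nut 1h, with KRT8 at a log2 fold change of -0.71 and EPCAM at 0.46. Of 9 markers of immune, stromal, endothelial and liver cells, 8 were in the table, with DCN at 0 in every library. They summed to 24.9 and 24.1 CPM in the Nut 1h libraries and to 36.5 to 42.7 CPM in the other 4, nearly all of it COL1A1. MDM2, a p53 target, rose by a log2 fold change of 2.19 at Nut 1h and 3.75 at Nut 10h (edgeR adjusted p = 3.55e-08 at Nut 1h, where it was 1.51 with the GC-content offset explained below). CDKN1A, the p53 target that encodes p21, rose by 3.84 at Nut 10h. At Nut 1h it was not called (0.046, edgeR adjusted p = 0.70) and stood at 0.70 with the offset, which was called. Both Nut 1h libraries differed from the other libraries in how counts depended on transcript GC content. This touches every Nut 1h value below, and group counts are therefore also given with a GC-content offset, a smooth trend on GC content removed from each library. The source of the trend was not tested. Mitochondrially encoded genes took 8.44% and 8.15% of the counts in the Nut 1h libraries and 4.99% to 7.06% in the other 4, and their part in the results was not tested beyond leaving these genes out. In bulk RNA, fewer cells with a transcript and less of it per cell cannot be told apart.

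The chosen genes had between 78 and 8980 counts in a single library. Of the 152, 150 had a translated coding sequence in the annotation, with a median of 8 C2H2 fingers and up to 36. The other 2, ZNF252P and ZNF271, are annotated as pseudogenes, and 6 of the 150 had no finger match. A strict KRAB A-box pattern was found in 27 of the 150 and a wider one in 40. The wider pattern was added after the data were seen, because the strict one missed genes known to carry the domain. Transcript GC content ranged from 35.6% to 70.9% (median 49.7%). By position, 31 lay on chromosome 19, 17 on chromosome 16 and 14 on chromosome 7. Another annotated gene overlapped 113 of them, a protein-coding one in 48 cases. Since the strand setting and the treatment of reads that map to several places are not given in the sources used here, counts of overlapping genes and of close copies such as ZNF33A and ZNF33B are uncertain.

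Per kilobase of transcript, Nut 0h levels (TMM-scaled CPM, the unit of all levels below) ranged from 1.02 to 46.2 with a median of 5.77. The highest level per kilobase was that of ZNF768, at 46.2. It was followed by ZNF385A, an RNA-binding protein and p53 cofactor also known as HZF, at 41.6, by ZNF580 at 41.4 and by ZNF787 at 40.8. ZNF503, a corepressor of the NET family, stood at 34.5. With 2 libraries each, the spread was wide (ZNF580 had 80.6 and 60.8 CPM), so the order of neighbours in this list is not resolved. Just above the threshold lay ZNF557 at 10.0, ZNF107 at 10.01 and ZNF33B at 10.04 plain CPM, and just below it ZNF212 at 9.998, ZNF277 at 9.969 and ZNF480 at 9.871.

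The summed level of the ZNF genes was 5863 and 5612 CPM under vehicle, 5808 and 5822 after 1 h and 5936 and 5752 after 10 h. The groups overlapped. Within that sum, the 56 genes under 45% GC summed to 1675 and 1822 CPM under vehicle, 3234 and 3110 after 1 h and 1737 and 1952 after 10 h. The 55 genes at 55% GC and over went the other way, with 2610 and 2204 CPM under vehicle, 966 and 1060 after 1 h and 2631 and 2236 after 10 h. Both Nut 1h libraries lay outside the range of the other 4 libraries in either class.

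**Figure D1:**
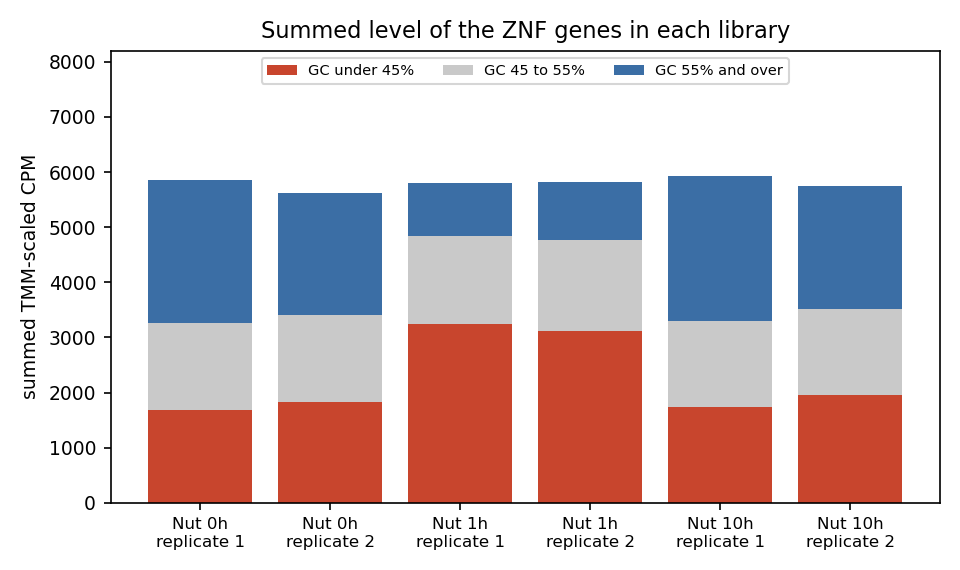
Summed TMM-scaled CPM of the 152 ZNF genes in each library (one bar per library), split by transcript GC content into under 45%, 45 to 55%, and 55% and over. The bars reach 5612 to 5936 CPM in all libraries, while the low-GC part is larger and the high-GC part smaller in both Nut 1h libraries.

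The comparison of Nut 1h with Nut 0h asked which ZNF mRNAs had changed within the first hour of p53 activation. In edgeR's quasi-likelihood test, 64 of the 152 genes rose (42.1%) and 68 fell (44.7%) at an adjusted p of at most 0.05, and 20 were not called. Of all 16565 tested genes, 34.5% rose and 32.3% fell, and of the 9394 tested genes that meet the same level threshold 38.4% rose and 41.7% fell. The share of ZNF genes called was thus near that of other genes of their level, and their median log2 fold change was -0.0225, with movement in both directions. This balance depends on the choice of genes by their Nut 0h level, which is also the baseline here. Over all 378 tested ZNF genes 60.6% rose and 22.2% fell, with a median of 0.72, and the median was 0.37 with a minimum of 5 CPM, -0.27 with 20 CPM, and 0.48 with genes chosen on the treated libraries. Changes of at least 2-fold were called for 24 rising and 35 falling ZNF genes, against 10.1% and 13.9% of all tested genes. The median absolute log2 fold change was 0.89 for the ZNF genes and 0.59 for tested genes at the same threshold.

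The genes that rose mostly had AT-rich transcripts. The same held for tested genes of their level in general. Of the 56 ZNF genes under 45% GC, 52 rose (92.9%) and 1 fell (median log2 fold change 0.97), while of the 3504 tested genes in that class 82.2% rose (median 0.60). Of the 55 at 55% and over, 54 fell (98.2%) and none rose (median -1.12), while of 2929 tested genes 92.4% fell (median -0.91). In between, 12 of 41 rose and 13 fell (29.3% and 31.7%, against 23.4% and 37.1% of 2940 tested genes). Across the 152 genes the log2 fold change at Nut 1h had a Pearson r of -0.917 with GC content, and across the 9373 tested genes of the same level with a known GC content it was -0.84. Spearman's rho with transcript length was 0.528, and 0.375 with the GC-content offset. These are descriptions across genes, which share libraries and are not independent replicates.

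**Figure D2:**
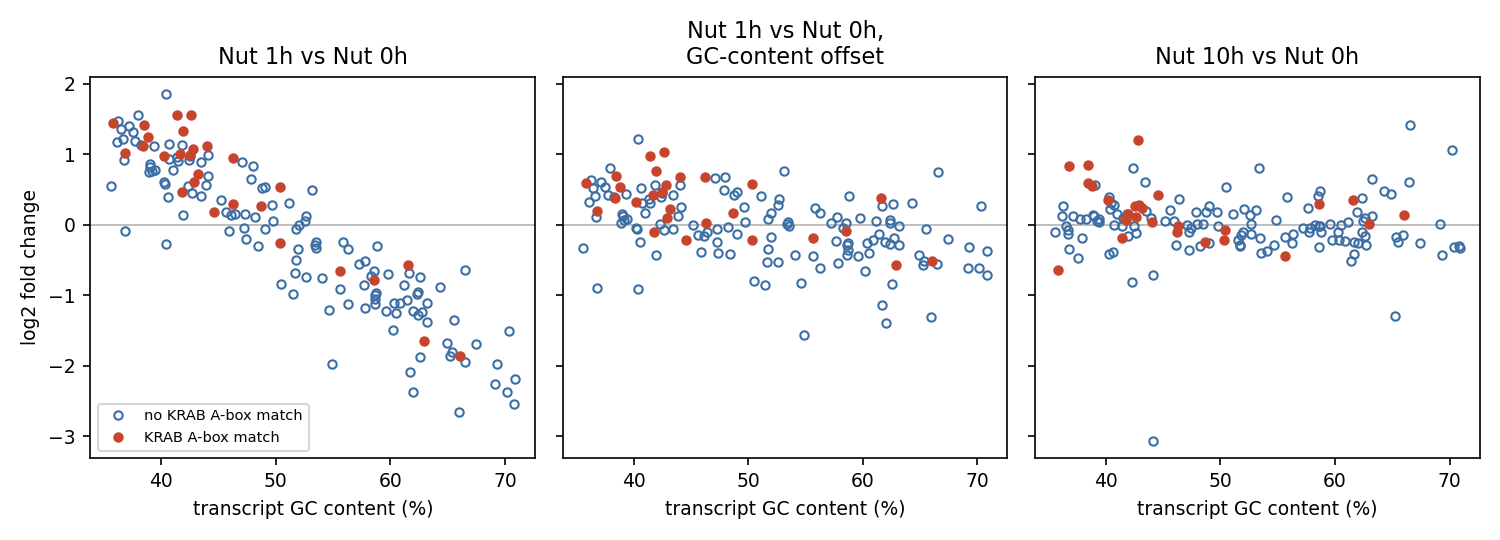
Log2 fold change (y axis) against transcript GC content in percent (x axis) for the 152 ZNF genes, for Nut 1h, for Nut 1h after the GC-content offset, and for Nut 10h, with genes holding the strict KRAB A-box pattern filled (the 2 genes without a translated sequence are drawn open). At Nut 1h the points run from 1.85 for ZNF121 to -2.65 for ZNF579, and at Nut 10h no such slope is seen.

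ZNF121, a gene with 9 finger matches on chromosome 19 of GRCh37 (9671005 to 9695180), had 25.4 and 31.1 CPM under vehicle, 105 and 99.2 after 1 h and 31.4 and 38.7 after 10 h. Its rise at Nut 1h was the largest among the ZNF genes, with a log2 fold change of 1.85 (SE 0.12, edgeR adjusted p = 8.67e-08). Both Nut 1h libraries lay above all others by more than the spread between replicates. ZNF721, with 23 finger matches, went from 20.2 and 19.03 CPM to 57.8 and 58.0 (log2 fold change 1.56). ZNF766, a KRAB gene, went from 10.5 in each vehicle library to 30.8 and 31.3 CPM (1.56). ZNF562, another KRAB gene, went from 20.4 and 22.1 to 63.7 and 61.3 CPM (1.55). ZNF770 went from 32.2 and 39.5 to 99.7 and 98.7 CPM (1.47). None of these 5 overlapped between Nut 0h and Nut 1h, which was a condition for naming them.

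At the other end, ZNF579 (chromosome 19, 56088140 to 56092214) had 107 and 75.5 CPM under vehicle, 13.5 and 15.7 after 1 h and 94.5 and 71.0 after 10 h. The fall at Nut 1h was -2.65 on the log2 scale (SE 0.17, edgeR adjusted p = 8.41e-08). Its Nut 0h and Nut 10h libraries overlapped. ZNF628 went from 51.5 and 37.4 to 7.11 and 8.31 CPM (-2.53). ZNF503 went from 123 and 98.1 to 20.9 and 21.9 CPM (-2.37). ZNF219, a transcription factor that acts with SOX9 in cartilage, went from 41.7 and 33.5 to 7.41 and 7.17 CPM (-2.36). ZNF358 went from 18.7 and 15.1 to 3.34 and 3.77 CPM (-2.25). In each of these 5 the higher Nut 1h library lay below the lower Nut 0h library, again a condition for naming them.

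To show what the difference in base composition looks like where the protein motif is shared, single zinc fingers are given. Each is the coding DNA of the first matched finger in each protein with the bases that follow it (84 bases in all, from the annotation lifted to GRCh37). They are from the 3 largest falls and the 3 largest rises among called genes with at least 3 fingers, a ranking that itself follows GC content, and stand for these 6 genes only. Capitals mark the codons of the cysteines and histidines that bind zinc.
ZNF579: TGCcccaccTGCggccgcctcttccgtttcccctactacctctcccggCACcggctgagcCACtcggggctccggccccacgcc
ZNF628: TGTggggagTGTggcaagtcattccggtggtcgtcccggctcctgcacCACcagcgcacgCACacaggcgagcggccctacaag
ZNF219: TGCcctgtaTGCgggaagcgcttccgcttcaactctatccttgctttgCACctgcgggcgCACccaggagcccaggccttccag
ZNF766: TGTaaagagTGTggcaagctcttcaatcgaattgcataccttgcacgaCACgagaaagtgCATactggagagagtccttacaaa
ZNF721: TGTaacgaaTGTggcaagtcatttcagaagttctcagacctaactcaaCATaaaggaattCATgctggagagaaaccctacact
ZNF121: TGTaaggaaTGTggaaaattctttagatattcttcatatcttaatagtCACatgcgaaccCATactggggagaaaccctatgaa
In the 3 that fell, 27, 24 and 21 of the 28 codons end in G or C (ZNF579, ZNF628 and ZNF219). In the 3 that rose, 11, 10 and 8 of 28 are G or C (ZNF766, ZNF721 and ZNF121). Over the whole coding sequences of the 150 translated genes, the log2 fold change at Nut 1h had a Pearson r of -0.86 with the share of codons that end in G or C.

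With the GC-content offset, 53 ZNF genes rose and 46 fell at Nut 1h, against 20.5% and 24.8% of all tested genes. In percent, 34.9% of the ZNF genes rose and 30.3% fell, and of tested genes at the same level threshold 21.6% rose and 34.5% fell. The ZNF share that fell thus lay above that of all tested genes and below that of genes of their level. Of the 64 genes that rose without the offset, 44 kept their call, 19 lost it and 1 (ZNF148) was called lower. Of the 68 that fell, 40 kept it, 21 lost it and 7 were called higher (ZNF469, ZNF512B, ZNF324, ZNF707, ZNF787, ZNF710 and ZNF513). Among those that kept it, ZNF121 had an offset log2 fold change of 1.22, ZNF562 of 1.03, ZNF766 of 0.97, ZNF721 of 0.80 and ZNF12 of 0.77. The largest falls that kept it were ZNF771 at -1.57, ZNF503 at -1.39, ZNF579 at -1.30, ZNF580 at -1.13 and ZNF706 at -0.91 (adjusted p for ZNF706 = 3.02e-08, edgeR with the offset, against 0.0172 without it). ZNF771 and ZNF580 each overlap a protein-coding gene.

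With the offset, 34 of the 56 ZNF genes under 45% GC rose (60.7%) and 4 fell, while 21.5% of the 3504 tested genes in that class and at the same level rose and 31.6% fell. The medians were 0.35 and -0.0474. At 55% GC and over, 29 of 55 ZNF genes fell (52.7%), against 34.9% of 2929 genes, with medians of -0.26 and -0.0683. Within the ZNF genes the Pearson r with GC content was -0.485 with the offset. These are counts and medians without a test, and the difference from other genes was not tested.

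By KRAB class, 19 of the 27 genes with the strict A-box pattern rose at Nut 1h and 5 fell, with a median log2 fold change of 0.96. Of the 123 without a match, 43 rose and 63 fell (median -0.27). With the offset 16 and 2 of the 27 did (median 0.38), and 37 and 44 of the 123 (median -0.0271). The classes differ in GC content, with medians of 42.9% and 52.0%. Under 45% GC, 16 of 17 KRAB genes and 34 of 37 genes without a match rose, and with the offset 13 of 17 and 21 of 37 did. With the wider pattern 24 of 40 genes rose and 11 fell, and 20 and 5 did with the offset. The 226 tested ZNF genes below the level threshold had a median GC content of 42.4% and 11 finger matches, and 165 of them rose at Nut 1h (73.0%) while 16 fell, with a median log2 fold change of 1.01, against 34.5% and 32.3% of all tested genes. With the offset 111 rose (49.1%) and 12 fell, with a median of 0.47, against 20.5% and 24.8%. This set was defined by a low Nut 0h level, and Nut 0h is also the baseline of the comparison.

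**Figure D3:**
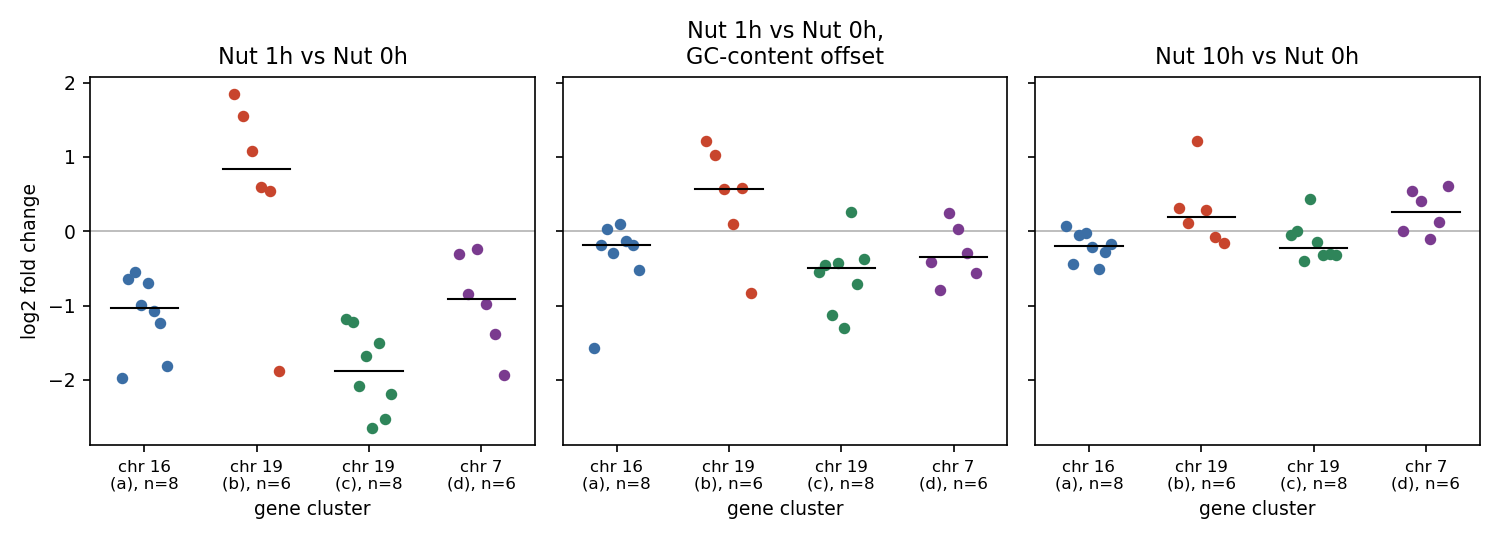
Log2 fold changes (y axis) of the ZNF genes in 4 genomic clusters (x axis, a to d), each point a gene, ordered from left to right by GC content within a cluster, with the median as a line, for Nut 1h, for Nut 1h after the GC-content offset, and for Nut 10h. At Nut 1h all genes of clusters a, c and d lie below 0, while in cluster b 5 of 6 genes lie above it.

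A cluster was taken as at least 5 chosen genes with neighbours under 500 kb apart, which gave 4. The cluster on chromosome 16 (30389427 to 31095517, labelled a) holds ZNF48, ZNF771, ZNF768, ZNF764, ZNF689, ZNF629, ZNF668 and ZNF646, with 54.9% to 65.3% GC. All 8 fell at Nut 1h, and 3 did with the offset. In the distal chromosome 19 cluster (55987984 to 56672262, c), which runs from ZNF628 to ZNF444 at 57.8% to 70.9% GC, all 8 fell and 7 did with the offset. The exception was ZNF787, at -1.51 without the offset and 0.26 with it. In the proximal chromosome 19 cluster (8574562 to 9785776, b), ZNF558, ZNF317, ZNF121, ZNF561 and ZNF562 rose at Nut 1h, all but ZNF558 also with the offset. ZNF414, the one GC-rich gene there at 62.6%, fell by 1.88 on the log2 scale. In the chromosome 7 cluster (148766733 to 149470677, d), 5 of 6 fell at Nut 1h, all but ZNF786, and 4 did with the offset. These counts stand beside 92.4% falling, and 34.9% with the offset, among tested genes of the same level at 55% GC and over, and 82.2% rising, and 21.5% with the offset, among those under 45%. At Nut 10h 3 genes of this cluster rose, ZNF746, ZNF467 and ZNF786, and none fell (14.1% and 14.9% of all tested genes). In cluster a 2 fell (ZNF48 and ZNF689) and none rose, and 4 fell with the offset. With the offset, 17.0% of all tested genes rose and 22.4% fell at Nut 10h. In cluster b ZNF561 alone was called and rose, and 3 rose with the offset. In cluster c ZNF580 alone was called and fell, and with the offset 1 rose and 3 fell.

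The comparison of Nut 10h with Nut 0h asked which ZNF mRNAs had changed once the p53 response was established. Here 24 of the 152 genes rose (15.8%) and 19 fell (12.5%), against 14.1% and 14.9% of all tested genes. The median log2 fold change was 0.0068. Of tested genes at the same level threshold 14.4% rose and 21.7% fell, so that the share of ZNF genes that fell was lower than that of genes of their level, a difference that was not tested. This comparison and that of Nut 1h share the Nut 0h libraries. Their level chose the genes and is the baseline here too, so falls from near the threshold are not independent of that choice. Over all 378 tested ZNF genes 14.8% rose and 10.8% fell. Changes of at least 2-fold were called for 5 genes, 3 up and 2 down, against 3.74% and 3.11% of all tested genes. With the GC-content offset all 43 calls stayed, and 31 genes rose and 34 fell in all (17.0% and 22.4% of all tested genes, and 18.1% and 33.1% of those at the same level threshold). The Pearson r with GC content was -0.056.

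ZNF367 (chromosome 9 of GRCh37, 99148223 to 99180652), a C2H2 transcription factor, had the largest change among the ZNF genes at Nut 10h. It had 46.0 and 49.1 CPM under vehicle, 78.5 and 74.6 after 1 h and 5.94 and 5.47 after 10 h. On the log2 scale it fell by 3.06 at Nut 10h (SE 0.11, edgeR adjusted p = 5.08e-10) after a rise of 0.69 at Nut 1h (SE 0.09, adjusted p = 2.06e-05), which was 0.26 with the offset (adjusted p = 0.00836). No library of one condition lay within the range of another. Genes that p53 activation lowers through p21 and the DREAM complex typically carry E2F sites, CCAAT boxes and cell cycle homology (CHR) elements near their start, so the ZNF367 promoter was searched for these letters after its fall was known. The 250 bases before its start, from RefSeq (GRCh38.p14, chr9:96418371-96418620, minus strand), are shown with the matches in capitals.
ZNF367 promoter: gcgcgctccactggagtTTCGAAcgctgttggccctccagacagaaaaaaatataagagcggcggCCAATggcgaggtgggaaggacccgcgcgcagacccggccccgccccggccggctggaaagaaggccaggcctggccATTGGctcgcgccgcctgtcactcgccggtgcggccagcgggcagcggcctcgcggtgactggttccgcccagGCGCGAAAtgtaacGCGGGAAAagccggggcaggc
From left to right the capitals first mark a CHR match, which reads TTCGAA, 233 bases before the start. A CCAAT box on each strand in turn follows, 185 and 108 bases before the start. A pair of E2F matches on the other strand (GCGCGAAA and GCGGGAAA) lies 35 and 21 bases before it. Either strand was searched for TTTCCCGC, TTTGGCGC, TTTCGCGC and TTTGCCGC (E2F), for the CHR letters shown and their form TTTGAA, and for the CCAAT box, and none of the matches overlap in this promoter. Of 35116 RefSeq promoters (250 bases before to 50 after each start), 3.31% hold an E2F match, 16.4% a CHR match and 34.6% a CCAAT box. Of the 122 ZNF genes with a RefSeq promoter, 10 hold an E2F match, 16 a CHR match and 48 a CCAAT box. The shares count promoters and the ZNF figures count genes, so that they are not directly comparable. All 3 kinds stand together in 63 of the 35116 promoters (0.179%) and in those of 2 ZNF genes, ZNF367 and ZNF503. ZNF503 was not called at Nut 10h (-0.26, edgeR adjusted p = 0.0926). These are letter matches, and no binding was measured here.

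ZNF703, a corepressor of the NET family and paralog of ZNF503, fell from 17.0 and 10.7 CPM at Nut 0h to 6.74 and 4.59 at Nut 10h, with the lowest levels, 3.43 and 4.23, at Nut 1h. At Nut 10h the log2 fold change was -1.29 (SE 0.21, edgeR adjusted p = 0.000423). The replicates of each condition were wide apart, yet Nut 0h and Nut 10h did not overlap, as the choice of named genes required. ZNF184, a gene with the wider KRAB pattern and 19 finger matches, went from 11.03 and 10.5 to 6.38 and 5.92 CPM (-0.81). ZNF704 went from 16.5 and 21.1 to 10.4 and 12.6 CPM (-0.71), and ZNF107, a KRAB gene, from 9.81 and 10.6 to 6.41 and 6.71 CPM (-0.64). ZNF107 has close relatives among the ZNF genes, such as ZNF714 and ZNF721, with which it may share reads. At Nut 10h ZNF703, ZNF184 and ZNF107 lay under the 10 CPM by which genes were chosen at Nut 0h.

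**Figure D4:**
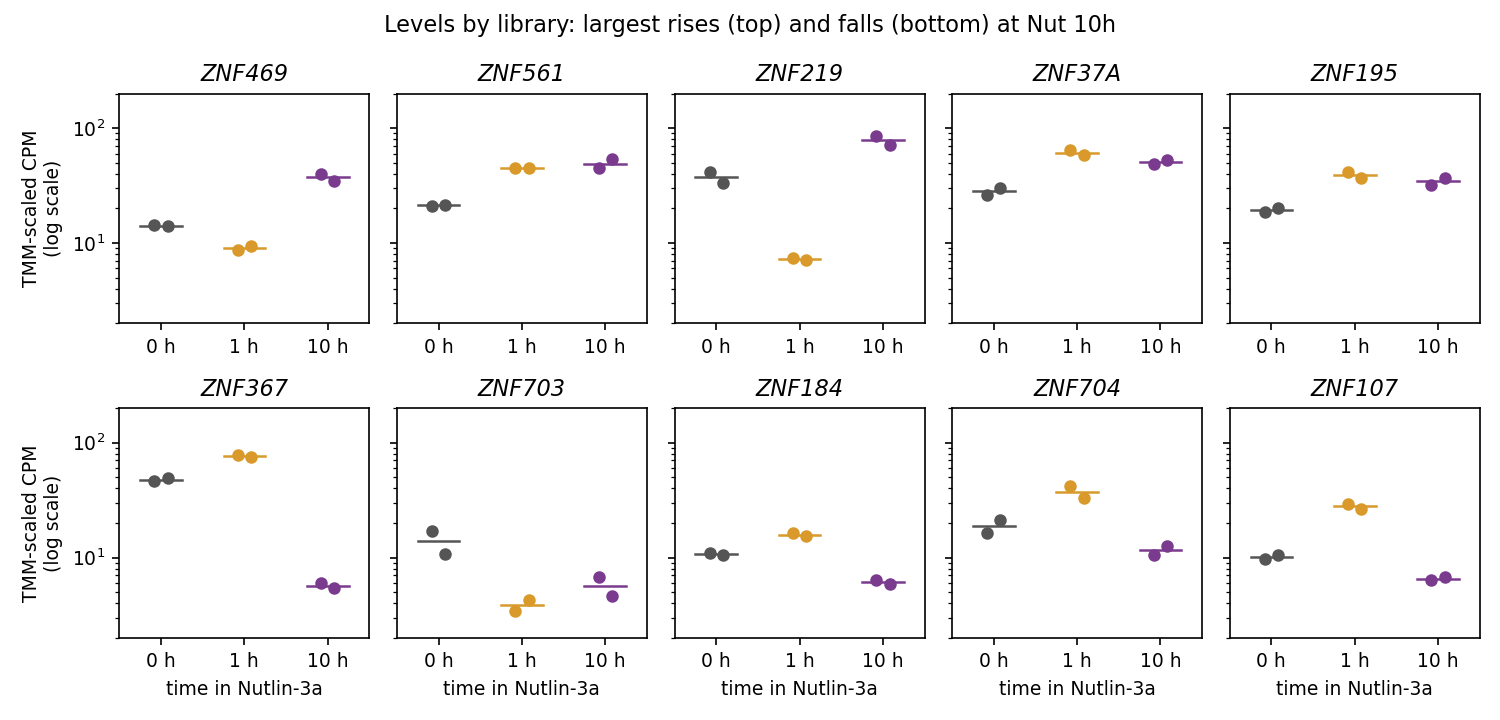
TMM-scaled CPM on a log axis (y) at 0, 1 and 10 h of Nutlin-3a (x) for the 5 largest rises at Nut 10h (top row) and the 5 largest falls (bottom row), with each point a library and the line the mean of 2. ZNF561, ZNF37A and ZNF195 are high at both treated times, ZNF469 and ZNF219 are lowest at Nut 1h, and ZNF367 ends between 5.47 and 5.94 CPM.

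The largest rise at Nut 10h was that of ZNF469 (chromosome 16, 88449367 to 88507165). This gene encodes a very long protein (3953 residues) and is mutated in brittle cornea syndrome. It had 14.2 and 14.0 CPM under vehicle, 8.72 and 9.42 after 1 h and 39.97 and 34.9 after 10 h, a log2 fold change of 1.41 (SE 0.11, edgeR adjusted p = 2.65e-07). Its value at Nut 1h was -0.64 without the GC-content offset and 0.75 with it, both called, so its direction there depends on that choice. ZNF561 (chromosome 19, 9715356 to 9731912), a KRAB gene that the study lists among its p53 targets, had 20.9 and 21.5 CPM under vehicle, 44.7 and 44.7 after 1 h and 44.7 and 53.3 after 10 h. It rose at both times, by 1.08 (adjusted p = 1.38e-06) and 1.21 (adjusted p = 1.09e-06), edgeR without the offset, and by 0.57 and 1.17 with it. Its neighbour ZNF562, on the same strand, had 20.4 and 25.3 CPM at Nut 10h, a log2 fold change of 0.11 that was not called (edgeR adjusted p = 0.537).

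ZNF219 had 85.7 and 71.0 CPM at Nut 10h, above both Nut 0h libraries, with a log2 fold change of 1.06 (SE 0.12, edgeR adjusted p = 1.55e-05). It overlaps ARHGEF40 and TMEM253. The KRAB genes ZNF37A and ZNF195 rose by 0.85 and 0.83, and ZNF37A overlaps PLD5P1. ZNF37A had 48.2 and 53.2 CPM at Nut 10h against 26.1 and 30.1 at Nut 0h, and ZNF195 had 32.0 and 36.95 against 18.6 and 20.1. ZNF621 (0.81) and ZNF516 (0.80), a regulator of brown fat genes, came next. Of the 27 genes with the strict KRAB pattern 8 rose and 2 fell at Nut 10h, and of the 123 without a match 16 rose and 17 fell, with medians of 0.14 and -0.0146, against 14.1% rising and 14.9% falling among all tested genes. With the offset the counts were 10 and 4 of the 27 and 21 and 30 of the 123, against 17.0% and 22.4%, and the difference between the classes was not tested. Among tested genes at the same level threshold 14.4% rose and 21.7% fell, and 18.1% and 33.1% did with the offset.

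The p53 response element, a pair of 10-base half-sites, was sought in the 1000 bases before to 200 after the start of each tested gene, with no spacer, the C and G of each core (CNNG) fixed and up to 2 mismatches to the consensus elsewhere. The consensus is a palindrome, so that a search of either strand covers both. A match was found for 0.954% of 16137 windows, and for 6 of the 150 ZNF genes with a window (4.0%): ZNF561, ZNF469, ZNF280D, ZNF394, ZNF12 and ZNF696. The genes with the 2 largest rises at Nut 10h are among them, which is why the matches are shown. That of ZNF696 is not reported here. The other 5 are given 5′ to 3′ on the gene's strand, with the C and G of each core in capitals.
ZNF561: tggCatGcctgaaCtgGtcc
ZNF469: gaaCttGcccaggCagGtgc
ZNF280D: gggCaaGctttacCaaGccc
ZNF394: aacCaaGtccaatCttGccc
ZNF12: ggaCtgGcccaggCatGgtc
In GRCh37 they lie at chr19:9732713-9732732 (820 bases before the start of ZNF561, minus strand), chr16:88448964-88448983 (403 bases before that of ZNF469, plus strand), chr15:57026508-57026527 (ZNF280D, minus), chr7:99102867-99102886 (ZNF394, minus) and chr7:6746910-6746929 (ZNF12, minus). The log2 fold changes at Nut 10h were 1.21 and 1.41 for ZNF561 and ZNF469, and 0.13, -0.020 and 0.16 for the other 3, none of which was called. ZNF696 had 0.23, not called. A match is a description of letters and not of p53 binding.

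Of 9 ZNF genes linked to p53 by earlier knowledge or listed as targets by the study, 7 met the level threshold. The study chose part of this list on these samples, so its direction is not independent evidence. At Nut 10h 3 rose (ZNF561, ZNF385A and ZNF786), 1 fell (ZNF346) and 3 were not called, against 14.1% rising and 14.9% falling among all tested genes. At Nut 1h 2 rose and 4 fell (34.5% and 32.3% of all tested genes), and 1 and 4 did with the offset (20.5% and 24.8%). ZNF385A had 118 and 89.1 CPM under vehicle, 45.1 and 51.5 after 1 h and 170 and 157 after 10 h. At Nut 10h it rose by 0.66 on the log2 scale (SE 0.12, edgeR adjusted p = 0.0012), after a log2 fold change of -1.10 at Nut 1h, which was -0.0090 and not called with the offset. ZNF786 rose by 0.40 (adjusted p = 0.0217), from 15.3 and 12.5 to 19.2 and 17.5 CPM. ZNF346, a double-stranded RNA-binding protein known as JAZ, fell by 0.31 (adjusted p = 0.0468), and 9 alternatives, DESeq2 among them, lost this call. ZNF398 had 29.2 and 29.2 CPM under vehicle and 29.2 and 29.5 after 10 h (0.0077). ZNF668, a regulator of the p53-MDM2 interaction, had 38.0 and 28.9 CPM under vehicle, 9.42 and 9.68 after 1 h and 32.4 and 26.8 after 10 h, with log2 fold changes of -1.81 (-0.52 with the offset) and -0.18. ZNF148 (ZBP-89), which binds GC-rich promoters, was at 0.55 at Nut 1h without the offset and at -0.33 with it, both called, and at -0.10 at Nut 10h.

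Among 10 genes that act on RNA, ribosomes or translation, 5 rose and 4 fell at Nut 1h (34.5% and 32.3% of all tested genes) and 2 and 3 did with the offset (20.5% and 24.8%). ZNF598, the ubiquitin ligase that senses collided ribosomes, fell from 146 and 125 to 50.2 and 55.8 CPM (-1.35), and stood at -0.052 with the offset, not called. ZNF326, of the complex that couples splicing to elongation, went from 32.4 and 33.7 to 77.0 and 77.5 CPM (1.22, and 0.40 with the offset). ZNF207 (BUGZ), a kinetochore and splicing factor, had 208 and 221 CPM under vehicle, 204 and 201 after 1 h and 170 in each library after 10 h. It fell by 0.34 at Nut 10h (SE 0.09, edgeR adjusted p = 0.0101), and its value at Nut 1h was -0.084, not called, without the offset and -0.90 with it. At Nut 10h 1 of the 10 rose (ZNF385A) and 2 fell (ZNF207 and ZNF346), against 14.1% and 14.9% of all tested genes.

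Among 34 transcription regulators without a KRAB domain, 12 rose (35.3%) and 14 fell (41.2%) at Nut 1h, 11 and 11 did with the offset (32.4% each), and 5 rose (14.7%) and 4 fell (11.8%) at Nut 10h, where 5 and 8 did with the offset. Of all tested genes 34.5% and 32.3% did at Nut 1h, 20.5% and 24.8% with the offset, and 14.1% and 14.9% at Nut 10h (17.0% and 22.4% with the offset). Among those at the same level threshold 14.4% rose and 21.7% fell at Nut 10h, and 18.1% and 33.1% did with the offset. At Nut 1h ZNF644, a partner of the histone methyltransferases G9a and GLP, rose from 33.9 and 34.99 to 89.9 and 86.3 CPM (1.35, and 0.52 with the offset). ZNF143, which binds promoters and chromatin loop anchors, had 27.5 and 24.0 CPM under vehicle and 27.1 and 29.5 at Nut 1h. Its log2 fold change of 0.14 was not called, and with the offset it was -0.42 and called. At Nut 10h the rises were those of ZNF219, ZNF516, ZNF692 (0.48), ZNF518B (0.39) and ZNF462 (0.37). The falls were those of ZNF703, ZNF639 (-0.42), ZNF395 (-0.41) and ZNF827 (-0.36), of which ZNF395 overlaps FBXO16 and ZNF827 overlaps C4orf51. ZNF692 had 68.0 and 74.6 CPM under vehicle and 105 and 94.4 at Nut 10h.

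The factors through which KRAB proteins silence are not ZNF genes, and 20 of them were listed. At Nut 10h 8 of the 20 fell and 1 rose, against 14.9% and 14.1% of all tested genes. With the offset 11 fell and 1 rose, against 22.4% and 17.0%. All 20 meet the 10 CPM threshold. Among tested genes that meet it, 21.7% fell and 14.4% rose, and 33.1% and 18.1% did with the offset. UHRF1, which guides maintenance methylation, fell from 183 and 165 to 44.3 and 40.7 CPM (-2.03), DNMT1, the maintenance methyltransferase, from 487 and 455 to 244 and 227 CPM, and TRIM28, the KRAB corepressor, from 1683 and 1413 to 1224 and 1070 CPM (-0.43). At Nut 1h 12 rose and 4 fell, against 34.5% and 32.3% of all tested genes, and 8 and 3 did with the offset, against 20.5% and 24.8%. Among tested genes of the same level 38.4% rose and 41.7% fell, and 21.6% and 34.5% did with the offset. TRIM28 was among those that turned, at -0.90 without and 0.29 with it. Families of like proteins at the same threshold were described for comparison. Of 28 ZBTB genes 16 rose and 10 fell at Nut 1h, 12 and 3 did with the offset, and 5 rose and 2 fell at Nut 10h (10 and 4 with the offset). Of 8 ZSCAN and ZKSCAN genes 5 rose and 1 fell at Nut 1h, 5 and 0 did with the offset, and 3 rose and none fell at Nut 10h. Of 6 ZFP genes 4 rose and 2 fell at Nut 1h, 2 and 2 did with the offset, and 1 rose and 1 fell at Nut 10h (2 and 1 with the offset). Of all tested genes 17.0% rose and 22.4% fell at Nut 10h with the offset. Differences between these families and the ZNF genes were not tested.

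The comparison of Nut 10h with Nut 1h does not contrast the Nut 0h libraries, although they entered the scaling and the estimate of spread in the common fit. It called 64 ZNF genes higher and 64 lower at Nut 10h, against 34.2% and 33.7% of all tested genes, with a median of 0.0466. Of tested genes at the same level threshold 39.9% were higher and 39.4% lower. Over all 378 tested ZNF genes 23.5% were higher and 54.5% lower, with a median of -0.50, so that the even split holds for the genes chosen by their Nut 0h level. With the offset 49 were higher and 54 lower, against 28.8% and 29.1% of all tested genes. Across the 152 genes the log2 fold changes had a Pearson r of 0.862 with GC content, and of 0.387 with the offset, as a description. The largest rises from Nut 1h to Nut 10h were those of ZNF219 (3.42), ZNF467 (2.55), ZNF579 (2.51), ZNF358 (2.26) and ZNF628 (2.23). The largest falls were those of ZNF367 (-3.75), ZNF107 (-2.09), ZNF714 (-1.79), ZNF721 (-1.75) and ZNF766 (-1.74). All 10 kept their direction and call with the offset, at 0.51 to 1.76 for the rises and -3.35 to -1.02 for the falls. In each of them the groups did not overlap, which was a condition for naming them.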

How the data were processed

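RNA-seq gene counts of 6 HCT116 libraries (Nut 0h, Nut 1h and Nut 10h, 2 biological replicates each) were used. The authors trimmed reads with Trim Galore 0.6.6, aligned them to GRCh37 with STAR 2.7.0f and counted them per gene with featureCounts (Subread 2.0.0), and the deposited counts are raw. Strand and multimapping settings are not given in the sources used here. The deposited comparison tables hold the authors' DESeq2 fold changes and p-values, of which only the pairing of gene IDs with symbols was used.

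Counts were scaled by TMM and tested with edgeR 4.0.16 (quasi-likelihood, all 3 groups in 1 fit, R 4.3.3) over 16565 genes, with Benjamini-Hochberg adjustment over all of them and a threshold of 0.05. Each gene has 3 residual degrees of freedom, and edgeR draws its estimate of spread toward a trend over all tested genes. The p-values therefore rest partly on other genes, and they measure the spread between these libraries only. The GC-content offset was a loess trend (span 0.4) per library. The tests were checked on simulated data. Alternatives were other scaling factors, no low-count filter, DESeq2 1.42.0, the replicate block, other level thresholds and leaving out each library. Named were the largest changes per comparison among called genes whose groups did not overlap. Also named were the largest changes keeping their call with the offset, the highest levels, genes at the threshold and role lists. The genes and lists were chosen with earlier results of these data known.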

Additional observations from a re-analysis of the deposited data

Results flagged for a closer look

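For 18 of the 152 ZNF genes the changes at Nut 1h and at Nut 10h, both against Nut 0h, were called in opposite directions, and the difference between the treated times was itself called in edgeR's quasi-likelihood test of Nut 10h against Nut 1h. The log2 difference was positive, lower at Nut 1h and higher at Nut 10h, for ZNF219 (3.42), ZNF467 (2.55), ZNF469 (2.05), ZNF385A (1.76), ZNF672 (1.66), ZNF692 (1.53), ZNF746 (1.38), ZNF513 (1.364), ZNF516 (1.08), ZNF276 (1.07) and ZNF707 (0.92). It was negative for ZNF367 (-3.75), ZNF107 (-2.09), ZNF714 (-1.79), ZNF704 (-1.70), ZNF184 (-1.361), ZNF639 (-1.02) and ZNF280B (-0.77). How many of all tested genes, or of those at the same level threshold, had opposite calls was not counted. Whether 18 is more than among other genes was therefore not tested. With the GC-content offset 9 of the 18 kept their call at Nut 1h. Another 6 were not called there (ZNF184, ZNF276, ZNF280B, ZNF385A, ZNF516 and ZNF639), and 3 were called higher instead of lower (ZNF469, ZNF513 and ZNF707).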

How the results depend on the processing

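At Nut 1h 132 ZNF genes were called, at Nut 10h 43, and between the treated times 128. With the replicate number as a block the calls were 132, 44 and 129. The numbers were not taken to pair the libraries, since deviations of same-numbered libraries correlated at -0.149 (Nut 0h and Nut 1h), 0.221 (Nut 0h and Nut 10h) and -0.138 (Nut 1h and Nut 10h), although those of Nut 0h and Nut 10h did deviate together. DESeq2 called 125, 34 and 116. Requiring a 2-fold change left 59, 5 and 58 calls. With a level threshold of 20 CPM 87 and 26 genes were called at Nut 1h and Nut 10h, with 5 CPM 71 at Nut 10h, and with the GC-content offset 65 at Nut 10h. Leaving out each library gave 118 to 135, 31 to 53 and 107 to 128 calls. At Nut 10h upper-quartile factors gave 31 rising and 14 falling, and no low-count filter 23 and 26. The median change (log2) at Nut 1h was 0.0093 with upper-quartile factors, -0.0645 without the filter, -0.0705 with DESeq2, -0.0552 from the 2 groups alone, 0.0311 with the offset and 0.0316 with offset and block, -0.16 with a length offset, 0.37 and -0.27 at 5 and 20 CPM, and 0.48 with genes chosen on the treated libraries (-0.0596 to 0.0117 leaving out a library). At Nut 10h it was 0.0537 with upper-quartile factors and -0.0388 without the filter (-0.006 to 0.0443 leaving out a library). Between the treated times it was -0.0399 with the offset, -0.0392 with offset and block, 0.0816 without mitochondrial genes, -0.25 and 0.22 at 5 and 20 CPM, and -0.28 with genes chosen on the treated libraries (-0.0293 to 0.10 leaving out a library). The summed level was 5753 CPM at Nut 1h with RLE factors, and 6162, 6245 and 6277 without mitochondrial genes, in order of time. At Nut 1h the sign turned with the offset for 35 of the 152 genes, in 8 with a call on both sides. Among the genes whose alternatives were computed, with the offset and with offset and block, it turned for ZNF143 (-0.42 and -0.42), ZNF148 (-0.33 and -0.32), ZNF469 (0.75 and 0.76), ZNF516 (0.0062 and 0.0044), ZNF639 (-0.0384 and -0.0385) and ZNF787 (0.26 and 0.26). The cause was not tested. Of 1312 alternative values for 46 named genes, 1239 kept direction and call, 53 lost the call, 8 gained it and 12 reversed. Named genes were chosen in part because they were called or kept their call with the offset. The tally therefore does not describe all 152 genes.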
